A study of Mus musculus with 2 samples.

Results

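The miR-34 and miR-449 families were examined through their 6 mouse hairpin genes, Mir34a, Mir34b, Mir34c, Mir449a, Mir449b and Mir449c, taken by name from 2202 annotated miRNA genes. Small RNAs of left cerebral cortex were sequenced from adult females of the 5xFAD/CAST strain, 8 to 10 months old, in 2 libraries that form 1 group. 5xFAD is a transgenic model of familial Alzheimer disease whose transgenes are driven in neurons by Thy1 promoter elements, and all tissue carries that label. No tissue without that label, no other age and no treatment were analysed here. The results are thus levels in this tissue and the difference between replicate 2 and replicate 1. The tissue samples are listed as distinct but under one donor record, and whether they stem from distinct animals is not stated. P-values thus speak only of these 2 libraries, whose difference may be technical.

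MicroRNAs of both families repress mRNAs through base pairing of a short seed at the 5′ end, and microRNAs with the same seed share many targets. Mir34a and the Mir34b and Mir34c cluster are transcriptional targets of p53, and their products restrain the cell cycle and promote apoptosis by repressing genes such as Cdk6, Met and Bcl2. The Mir34b and Mir34c cluster and the Mir449 cluster are known for high expression in multiciliated cells, where in mice they act together in ciliogenesis, partly by repressing Ccp110. In the brain, multiciliated cells line the ventricles as ependyma, and the choroid plexus epithelium also bears cilia.

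The mature sequences are shown because the shared seed joins the 6 genes while the rest of the sequence sets them apart. The RefSeq table (GRCm38.p6) held mature entries for 5 of the 6 genes, 9 sequences in all. The 5p sequences follow, 5′ to 3′, with the seed (bases 2 to 8) in capitals.
miR-34a-5p: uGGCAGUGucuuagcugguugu
miR-34b-5p: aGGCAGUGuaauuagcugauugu
miR-449a-5p: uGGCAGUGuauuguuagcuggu
miR-449c-5p: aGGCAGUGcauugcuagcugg
These 4 carried one seed, and no other mature sequence among the 1738 in the table had it. Beyond the seed, miR-34a-5p and miR-34b-5p differed by 4 edits, as did miR-449a-5p and miR-449c-5p. Pairs across the families differed by 6 or 7 edits. miR-34c-5p and Mir449b had no entry and are named only, so these distances leave out the pair of miR-34b-5p and miR-34c-5p.

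The opposite arms did not share one seed across the families. The 3p sequences of the Mir34b and Mir34c cluster are shown because these neighbours, which lie in one cluster, differed widely in level, again with bases 2 to 8 in capitals.
miR-34b-3p: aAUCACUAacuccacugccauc
miR-34c-3p: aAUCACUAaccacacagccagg
These 2 shared a seed with each other and with no other entry, and differed by 5 edits over the whole sequence. The 3p seeds of Mir34a, Mir449a and Mir449c each occurred once in the table. The letters GGCAGUG were searched in all 1005 RefSeq hairpins on their own strand and on the reverse complement. They occurred on the own strand of all 5 hairpins of the families that have an entry, and of 1.69% of all hairpins (17). On the reverse complement they occurred in 1.49% (15), Mir34b among them. The hairpins of the cluster are shown with these letters in capitals.
Mir34b: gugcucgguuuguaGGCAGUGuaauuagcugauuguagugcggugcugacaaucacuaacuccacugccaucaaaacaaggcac
Mir34c: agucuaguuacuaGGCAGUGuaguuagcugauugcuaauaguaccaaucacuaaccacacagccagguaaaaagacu

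The genes lie at 3 loci of mm10. Mir34a (ENSMUSG00000065493.1) lies on chromosome 4 from 150068454 to 150068555 on the plus strand, and its last 17 bases overlap an exon of Gm37795, an uncharacterised transcript on the same strand. Mir34c (ENSMUSG00000065587.1, chromosome 9, 51103034 to 51103110) and Mir34b (ENSMUSG00000065492.1, chromosome 9, 51103562 to 51103645) lie 451 bases apart on the minus strand, opposite an intron of Btg4. The Mir449 genes lie on the plus strand of chromosome 13 within introns of Cdc20b, a host gene expressed in multiciliated cells. Mir449c (ENSMUSG00000076146.1) spans 113035983 to 113036091, Mir449b (ENSMUSG00000078027.1) 113037419 to 113037498 and Mir449a (ENSMUSG00000065575.1) 113037534 to 113037624.

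Counts on miRNA genes totalled 5162369 in replicate 2 and 4226300 in replicate 1. Reads mapping to several places, held outside these counts, made up 39.4% and 40.4% of all reads. Levels are given as CPM, counts scaled to a common total of counts on miRNA genes. The 10 neuronal marker genes summed to 44082 CPM in replicate 2 and 69853 CPM in replicate 1. The most abundant were Mir132, at 21189 and 40577 CPM, Mir383, at 7140 and 7295 CPM, and Mir128-1, at 3687 and 9000 CPM. Mir137 stood at 5769 and 6008 CPM, and Mir138-1 went the other way, at 4820 and 4244 CPM. The difference was thus uneven over the list and largest in CPM for Mir132. The 3 Mir124a genes, whose mature form comes from several loci so that their counts are uncertain, stood at 3.68 CPM or less in each library. The same uncertainty holds for other numbered copies of one miRNA, such as Mir128-1, Mir138-1 and Mir219a-2 here, and Mir138-2 and Mirlet7f-2 below. The erythroid genes Mir451a and Mir144 together had 861 CPM in replicate 2 and 36.2 CPM in replicate 1. The 3 microglial genes Mir21a, Mir155 and Mir223 together had 1083 and 3538 CPM. Of these, Mir21a stood at 899 and 3357 CPM, Mir155 at 181 and 173 CPM and Mir223 at 3.10 and 7.57 CPM. The endothelial gene Mir126a stood at 13122 and 7756 CPM. The astrocyte genes together had 38482 and 40419 CPM. Of these, Mir23a stood at 9784 and 6783 CPM, Mir23b at 18187 and 20609 CPM and Mir29a at 10511.5 and 13027.5 CPM. Mir23a thus went the other way from Mir23b and Mir29a. The oligodendrocyte genes Mir219a-2 and Mir338 together had 5329 and 7091 CPM. Mir302a had 0 counts in replicate 2 and 656 in replicate 1, Mir302b 1 and 553, and Mir302d 0 and 475. The part of these differences in the results below was not tested.

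Together the 6 genes took 0.396% of the counts in replicate 2 (Wilson 95% interval 0.391 to 0.401) and 0.329% in replicate 1 (0.323 to 0.334), a mean of 0.362% ± 0.0476 (SD, n = 2). The miR-34 genes supplied 20222 of the 20441 counts in replicate 2 and 13692 of the 13889 in replicate 1. The miR-449 genes supplied 219 and 197, or 44.5 CPM ± 2.96. Intervals here and below cover counting error only.

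Mir34a, the p53 target of the single-gene locus, was the main member. Its counts were 16872 in replicate 2 and 12343 in replicate 1, which gives 3268 and 2921 CPM, with a mean of 3094 CPM ± 246 (SD, n = 2). It ranked 50th among all miRNA genes in replicate 2 and 54th in replicate 1. Ranks and shares of all miRNA counts leave out reads mapping to several places, so genes with several loci can rank too low. It held 82.5% of the families' counts in replicate 2 (Wilson 95% interval 82.0 to 83.1) and 88.9% in replicate 1 (88.3 to 89.4). Exact Poisson 95% intervals of its level were 3219 to 3318 CPM in replicate 2 and 2869 to 2973 CPM in replicate 1. They do not overlap, so its level was slightly higher in replicate 2 while its share of the families was lower there.

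Mir34c, of the p53-regulated and cilia-linked cluster, was the second most abundant. With 3286 counts in replicate 2 and 1303 in replicate 1, it stood at 637 CPM (exact Poisson 95% interval 615 to 659) and 308 CPM (292 to 326). Its mean was 472 CPM ± 232 (SD, n = 2), and the intervals of the libraries do not overlap. It ranked 113th in replicate 2 and 146th in replicate 1, and its share of the families' counts was 16.1% and 9.38%.

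Mir34b, its neighbour in the cluster, was far less counted. It received 64 counts in replicate 2 and 46 in replicate 1, giving 12.4 CPM (exact Poisson 95% interval 9.55 to 15.8) and 10.9 CPM (7.97 to 14.5), a mean of 11.6 CPM ± 1.07 (SD, n = 2). The intervals overlap, and no difference was detectable at this depth. Its share of the families' counts was 0.313% in replicate 2 and 0.331% in replicate 1.

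Of the Mir449 cluster, Mir449a carried nearly all counts. Its 217 counts in replicate 2 and 196 in replicate 1 correspond to 42.0 CPM (exact Poisson 95% interval 36.6 to 48.0) and 46.4 CPM (40.1 to 53.3), a mean of 44.2 CPM ± 3.07 (SD, n = 2). Mir449c had 2 counts in replicate 2 and 1 in replicate 1. Mir449b had 0 counts in both, for which the limit of 3 counts is 0.581 CPM in replicate 2 and 0.710 CPM in replicate 1 (the two-sided exact Poisson 95% interval ends at 0.715 and 0.873 CPM). At least 18 consecutive bases of the Mir449b hairpin also occur, on either strand, in transcripts of 4 genes outside the miRNA annotation, so its count of 0 is uncertain. No such match to another annotated transcript was found for the other 5 hairpins.

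**Figure D1:**
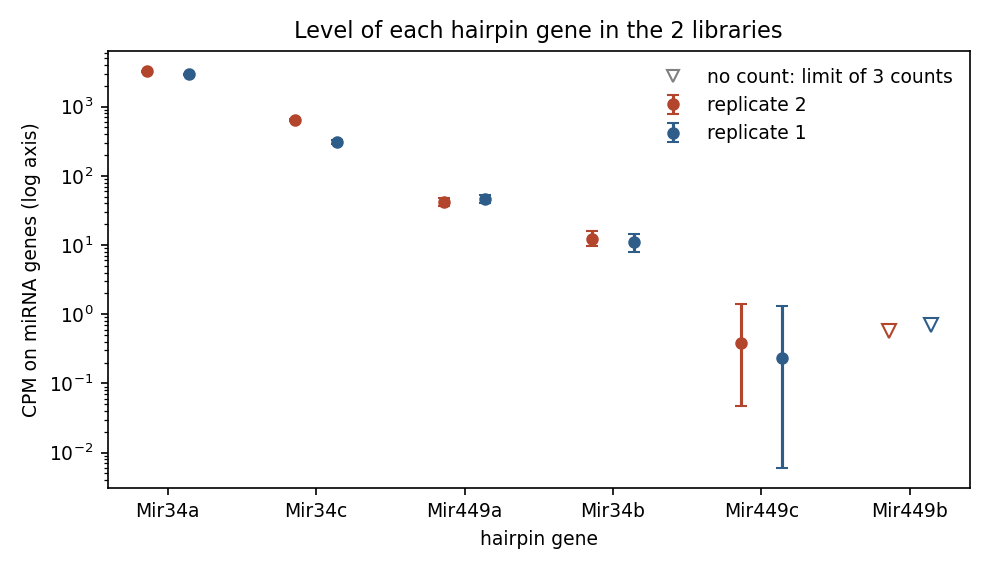
Level of each hairpin gene in CPM on a log axis, with replicate 2 to the left of replicate 1. Bars are exact Poisson 95% intervals and open triangles mark the limit that 3 counts give for Mir449b; Mir34a stands at 3268 and 2921 CPM, and the libraries stand farthest apart, among members with more than 2 counts per library, for Mir34c at 637 and 308 CPM.

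The order of the levels was Mir34a, Mir34c, Mir449a, Mir34b, Mir449c, Mir449b in both libraries. A read of a small RNA stands for a mature molecule, so CPM was not divided by length, and the order was the same per 100 bases of hairpin. Mir34a was 5.13 times the level of Mir34c in replicate 2 and 9.47 times in replicate 1. Mir34c was 15.1 and 6.65 times the level of Mir449a. Mir449a was 3.39 and 4.26 times the level of Mir34b. The means of these neighbours differed by more than their SDs in each case, with only 2 libraries behind each SD. Mir449c and Mir449b, with at most 2 counts per library, could not be told apart. Of the 6 genes, 4 reached 10 CPM in both libraries, against 309 of all 2202 miRNA genes.

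By Euclidean distance of log2(CPM + 1) over the 2 libraries, the genes nearest to Mir34a were Mir598 (3438 CPM in replicate 2 and 3105 CPM in replicate 1), Mir138-2 and Mirlet7f-2. Nearest to Mir34c were Mir490 (588 and 354 CPM), Mir16-1, whose mature form also comes from Mir16-2 so that its counts are uncertain, and Mir322. Nearest to Mir449a were Mir483 (46.1 and 50.2 CPM), Mir25 and Mir374b. Nearest to Mir34b were Mir5129 (13.0 and 11.1 CPM), Mir5132 and Mir3070a. With 2 libraries this likeness describes level and little else.

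Between the libraries, Mir34c was 2.02-fold higher in replicate 2, Mir34a was 1.10-fold higher, and Mir34b and Mir449a did not differ beyond counting error. The test was a two-sided exact binomial test of each gene's counts against TMM library sizes, a scaling that discounts extreme genes. It covered the 546 miRNA genes whose 2 counts sum to 10 or more, with p-values adjusted over all of them by Benjamini-Hochberg. Of these genes 58.8% were called, 24.5% as higher and 34.2% as lower in replicate 2. Of the 4 members tested, 2 were called higher, 0 lower and 2 were not called, too few to set apart from that background. Mir449b and Mir449c had too few counts to be tested. The median log2 ratio of the 4 was 0.14, against -0.07 over all tested genes.

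For Mir34c the log2 ratio was 1.01 (exact 95% interval 0.92 to 1.11, binomial adjusted p = 3.01e-110). Of the 546 tested genes, 134 had a log2 ratio at least as large in either direction, and of the 204 genes that average at least 100 CPM, 25 did (12.3%). With edgeR's exact test at a biological coefficient of variation (the relative spread between replicates beyond counting) of 0.1, which calls 28.8% of the genes, its adjusted p was 1.91e-05. At the coefficient of 0.481 estimated from these libraries, a choice made after seeing the data that calls 1.1% of the genes, its adjusted p was 1 (unadjusted p = 0.320). The difference of Mir34c thus passes a test of counting error. The coefficient of 0.481 was taken from the difference of the same 2 libraries that it tests, so the missing call there decides nothing. Whether Mir34c differs beyond the spread between replicates cannot be judged from 2 libraries.

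For Mir34a the log2 ratio was 0.13 (exact 95% interval 0.10 to 0.16, binomial adjusted p = 5.66e-14), a small difference resting on deep counts. The edgeR exact test at 0.1 did not call it (adjusted p = 0.712). Of the 546 tested genes, 464 had a log2 ratio at least as large in either direction (85.0%). For Mir34b the log2 ratio was 0.15 (-0.41 to 0.74, binomial adjusted p = 0.722), an interval that covers 0. For Mir449a it was -0.17 (-0.46 to 0.11, binomial adjusted p = 0.323), an interval that covers 0 and ends below the ratio of Mir34c.

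**Figure D2:**
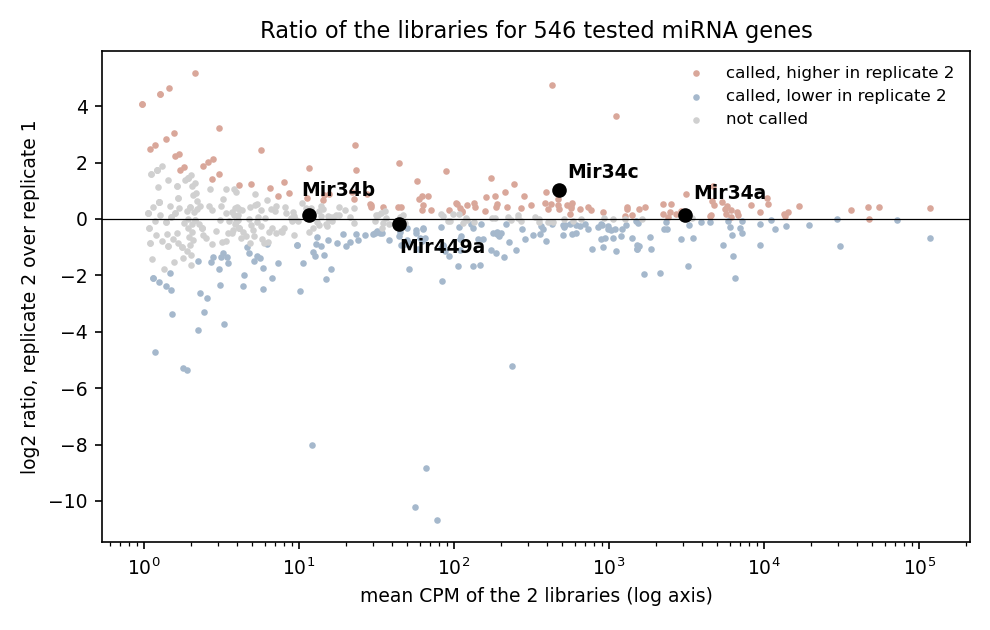
Log2 ratio of replicate 2 over replicate 1 against mean CPM on a log axis for the 546 tested miRNA genes, coloured by the binomial call, with the 4 tested members in black. Mir34c lies at 1.01, above Mir34a at 0.13, Mir34b at 0.15 and Mir449a at -0.17, and 134 genes lie as far from 0 as Mir34c does.

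Ratios within a library need no scaling, and 3 of them were compared between the libraries. The neighbours Mir34c and Mir34b, 451 bases apart, stood at a ratio of 51.3 in replicate 2 (exact 95% interval 40.1 to 66.8) and 28.3 in replicate 1 (21.1 to 38.9). The ratio was 1.81 times as high in replicate 2 (95% interval 1.21 to 2.70, two-sided Fisher's exact test, p = 0.00277, adjusted over 3 tests p = 0.00416). The 2 hairpins of the cluster thus did not keep one ratio beyond counting error.

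Mir34a stood at 5.04 times the sum of Mir34b and Mir34c in replicate 2 (4.85 to 5.23) and at 9.15 times in replicate 1 (8.65 to 9.69; Fisher's exact test, adjusted p = 5.75e-71). Mir34c supplied 3286 of the 3350 counts of that sum in replicate 2 and 1303 of the 1349 in replicate 1. The Mir449 genes had 0.0108 counts per count of the Mir34 genes in replicate 2 and 0.0144 in replicate 1 (Fisher's exact test, adjusted p = 0.00416). The ratio of Mir449a to Mir449c rests on 2 and 1 counts of Mir449c and was not tested. These tests hold counting error alone and no spread between animals.

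**Figure D3:**
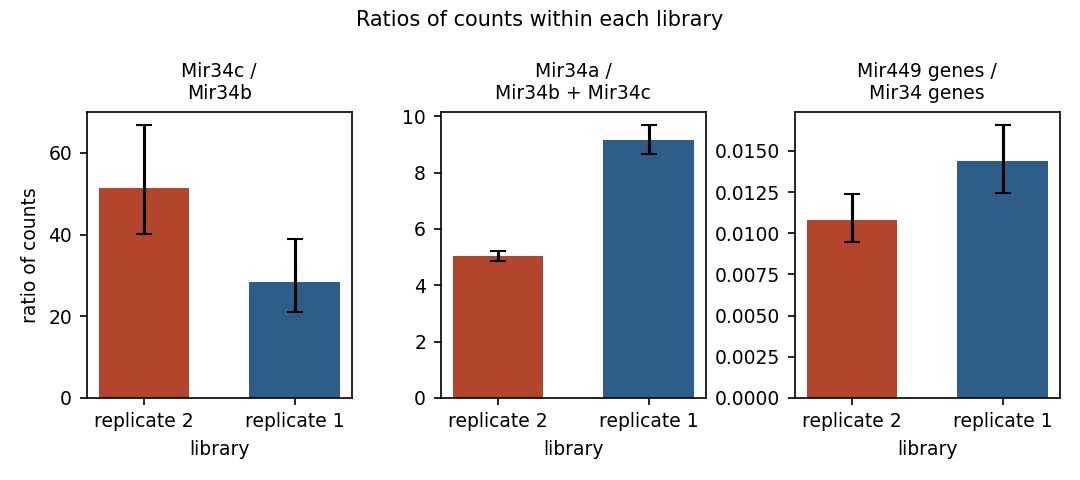
Ratio of counts within each library, with replicate 2 left of replicate 1, for Mir34c over Mir34b, Mir34a over Mir34b plus Mir34c, and the Mir449 genes over the Mir34 genes. Bars are ratios with exact binomial 95% intervals; the first is higher in replicate 2 (51.3 against 28.3), and the second (5.04 against 9.15) and the last (0.0108 against 0.0144) are lower.

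Among other miRNA genes linked to p53, the direction was mixed. Of 12 listed genes besides the miR-34 family, 10 were tested, 3 were called higher in replicate 2, 5 lower and 2 were not called, where 24.5% of all tested genes were called higher and 34.2% lower. The median log2 ratio was -0.49, against -0.07 over all tested genes. Among the 5 lower genes, Mir200c and Mir141 also belong to the epithelial list given below. Mir22, Mir143 and Mir107 were the most abundant. Mir22, a p53-induced brake on proliferation, stood at 2525 CPM in replicate 2 and 10479 CPM in replicate 1 (log2 ratio -2.08). Mir143, a smooth-muscle miRNA whose processing p53 enhances, stood at 6036 and 5276 CPM (0.16). Mir107, which p53 induces, stood at 4082 and 2165 CPM (0.88), but its sequence is nearly that of the Mir103 genes, so its counts are uncertain. The p53-linked genes were thus called in both directions, and 10 tested genes are too few to set apart from the shares over all tested genes.

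Of the listed markers of choroid plexus and ependyma, more were called higher than lower in replicate 2. Of 8 listed genes, 7 were annotated and tested, 4 were called higher in replicate 2, 1 lower and 2 were not called, with a median log2 ratio of 0.46, against 24.5% higher, 34.2% lower and a median of -0.07 over all tested genes. Their summed level was 1044 CPM in replicate 2 and 687 CPM in replicate 1. Mir204, abundant in choroid plexus epithelium, stood at 667 CPM in replicate 2 and 475 CPM in replicate 1. Mir1298, which like Mir448 lies within Htr2c, a serotonin receptor gene abundant in choroid plexus, stood at 254 and 89.9 CPM, and Mir448 stood at 36.2 and 10.6 CPM. Of the other listed genes within Htr2c, Mir764 stood at 13.9 and 16.3 CPM and Mir1264 at 34.1 and 30.3 CPM, both not called. Mir1912 had 10 and 0 counts and lay below 10 CPM. The higher calls of Mir1298, Mir448 and Mir1912 thus come from 1 host gene and are not independent of each other. The 7 tested genes are too few to set apart from the shares over all tested genes. Mir211, of the Mir204 family, was lower, at 37.0 and 65.5 CPM. Mir449a, the cilia-linked member of the other family, stood at 42.0 and 46.4 CPM. The part of these cells in the level of Mir34c was not tested, and in bulk tissue more cells of a type and more RNA per cell cannot be told apart.

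The airway-type epithelial genes of the miR-200 family were lower in replicate 2. All 5 listed genes were called lower, against 34.2% of all tested genes, and 2 of them, Mir200a and Mir141, were under 10 CPM in at least 1 library. Mir200a, Mir200b and Mir429 are neighbours in the gene annotation, so their calls are not independent of each other. The 5 genes are too few to set apart from the share over all tested genes. The most abundant were Mir429, at 53.5 CPM in replicate 2 and 131 CPM in replicate 1, Mir200c, at 59.3 and 109.6 CPM, and Mir200b, at 30.6 and 138 CPM. The summed level of the 5 genes was 156 CPM in replicate 2 and 406 CPM in replicate 1.

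**Figure D4:**
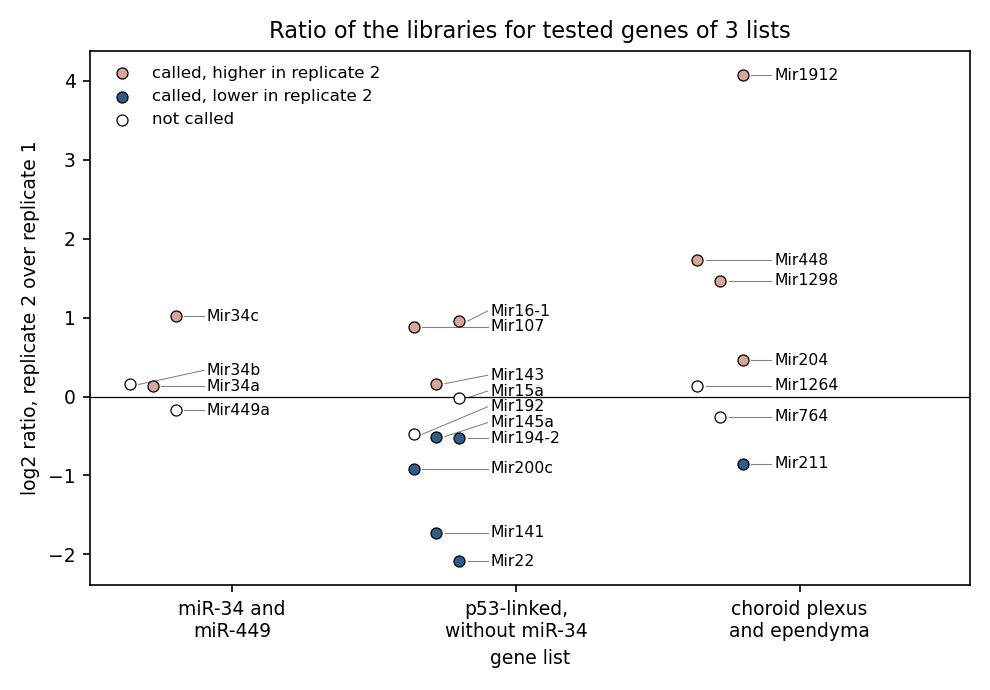
Log2 ratio of replicate 2 over replicate 1 for the tested genes of 3 lists, coloured by the binomial call and spread sideways for legibility. The p53-linked genes lie on both sides of 0, from Mir22 at -2.08 to Mir16-1 at 0.96. Of the 7 choroid plexus and ependyma genes, 4 are called higher in replicate 2 and 1 lower. The position of Mir1912, at 10 and 0 counts, depends on the 0.5 counts added.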

How the data were processed

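Raw read counts per miRNA gene were deposited for each library, made on mm10 with GENCODE M21, per the file headers accompanying them. Which aligner, counter and trimming were used is not given in the sources used for this account. All 2202 IDs matched M21. The column of counts on the gene's own strand was used. The first 4 rows name no gene (67.6% of reads in replicate 2 and 67.4% in replicate 1) and were left out. A row is a hairpin, so its 5p and 3p arms are summed, without reads that map to several places. Strain differences from the reference could lower mapping, and this was not analysed here.

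Binomial tests used scipy 1.17.1 with TMM from edgeR 4.0.16, at an adjusted p of 0.05. Ratios had 0.5 counts added, and the method was tested on simulated data. DESeq2 1.42.0 size factors were an alternative. Named genes were the 6 members, the 3 genes nearest to each detected member, and the 3 most abundant of each list described, and others were named after their values were seen. Members and lists were chosen with earlier results of these data known.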

Additional observations from a re-analysis of the deposited data

Results flagged for a closer look

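Opposite-strand counts, which the comparisons do not use, lay above the 3 counts that a count of 0 allows at Mir34b. The gene had 6 such counts in replicate 2 and 4 in replicate 1, or 8.57% of its reads on both strands (Wilson 95% interval 3.99 to 17.5) and 8.00% (3.15 to 18.8). The other 5 members had 0. Over the 2138 miRNA genes that overlap no miRNA gene of the other strand, it made up 0.00419% of replicate 2 and 0.00439% of replicate 1, and 59 of them had any such count. Mir34b was among the 8 with 10 or more in the sum of both libraries. What these reads are was not tested.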

How the results depend on the processing

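No paired analysis was possible because the labels give 1 group. Of 69 values recomputed under other settings, leaving out a library and Mir449b (0 under each) aside, 53 stayed within the spread or kept their call and 0 reversed. Adding 1 count in place of 0.5 alters the ratio and not the binomial test, so those calls could not change. The spread is the SD of 2 libraries, which is wide for Mir34c, so a level within it says little about stability. Mir34a was called by the binomial test and lost the call with the edgeR exact test at a coefficient of 0.1 and at the estimated one (log2 ratio 0.13 in both), and Mir34c lost it at the estimated one (1.01). Called genes numbered 157 and 6 under these tests, in place of 321; at the estimated one 29 had an unadjusted p under 0.05. With all reads as denominator, levels were 1004 CPM for Mir34a, 153 for Mir34c, 14.4 for Mir449a, 3.78 for Mir34b and 0.101 for Mir449c, and the families' share was 0.118%, by construction. The unstranded column gave Mir34b 13.6 CPM and 0.351% of the families' counts, and Mir449a 47.5 CPM. Per 100 bases of hairpin, added after seeing the data, Mir34b stood at 13.9 and Mir449a at 48.6. Leaving out a library gives the other's value, which says nothing about stability. Ranges over the libraries were 2921 to 3268 CPM for Mir34a and 308 to 637 for Mir34c. Mir34b and the Mir449 genes are limited by depth.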
